A study of Mus musculus with 5 samples.

Results

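The 42 genes described here act between late G2 and the end of cell division. They were chosen by symbol from a fixed list of mitosis and G2/M genes, with earlier results of these data known. All 42 were found among the 18384 mouse genes of the count tables. Their levels were compared between single cells of MMTV-PyMT organoids embedded for 5 days in Collagen I (2 plates, replicates 1 and 3) and in BME, a basement membrane extract (3 plates, replicates 1, 2 and 3). All organoids carried the MMTV-PyMT transgene, in which a promoter active in mammary epithelium drives the polyoma middle T oncogene, and all were expanded in BME before they were embedded in either matrix. Live cells that excluded DAPI were sorted singly into the wells of a plate and sequenced by SORT-seq, where transcripts are counted by their molecular barcodes (UMIs). Collagen I replicate 2 was not analysed here. Wells with Krt5, Krt14 and Krt17 at 5 or more per 10000 counts are called basal (226 wells in Collagen I and 302 in BME), and wells with less than 2 per 10000 are called non-basal (277 wells in Collagen I and 537 in BME).

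Mitotic entry is driven by Cdk1 bound to cyclin B. The Aurora and Polo-like kinases then act on centrosomes, chromosomes and the spindle, and the anaphase-promoting complex, with Cdc20 and the ubiquitin-conjugating enzyme Ube2c, marks cyclin B and other proteins for destruction so that sister chromatids part. Most of these genes are transcribed in a wave that peaks in G2 and mitosis and is kept low in resting cells by the DREAM complex, so that their transcripts are widely used to mark dividing cells, in mammary tumours as elsewhere.

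After filtering, 556 Collagen I wells and 944 BME wells remained. The Collagen I plates were shallower. Over all 384 wells of a plate, before filtering, they held 1091410 and 1631981 counts, against 9077590 to 10911740 in the BME plates. The spike-in (ERCC) transcripts took 8.07% and 8.18% of these unfiltered counts in Collagen I against 2.31% to 2.68% in BME. In kept wells with at least 2000 UMIs, the counts per ERCC count were higher in Collagen I. Their medians were 97.3 and 62.4 in Collagen I, against 49.4, 47.7 and 53.9 in BME, in wells called module-high below. In the other such wells they were 71.7 and 53.3 in Collagen I, against 30.5, 29.6 and 36.5 in BME. Each Collagen I plate was read on a flow cell of its own and the BME plates together on 1, so that matrix and sequencing run cannot be told apart. Whether plates of a matrix were filled from separate cultures is not given in the sources used here, and p-values measure the spread between these plates, which may be technical. Transcripts of chromosome M had a median share per well of 6.82% and 8.36% in the Collagen I plates, against 13.7% to 17.2% in the BME plates. Summed fibroblast markers (6 of 6 in the files) reached 109 and 387 counts per 1000000 (CPM) in Collagen I and 29.4 to 36.2 CPM in BME, with Pdgfrb at 0 in 1 Collagen I and 2 BME plates. Leukocyte markers (4 of 5 in the files) and endothelial markers (3 of 3) summed to at most 6.29 and 5.59 CPM in any plate over all wells. The part of depth, sequencing run and these markers in the results was not tested.

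The promoters are shown first because many G2/M genes share a short element, the cell cycle genes homology region (CHR), which the MuvB and DREAM complexes bind, and CCAAT boxes, which NF-Y binds. RefSeq promoters (GRCm38.p6, 250 bases before to 50 after the start) were found for 34 of the 42 genes, and those of Ccna2, Pbk, Aurkb, Fam64a, Smc4, Kif20a, Cdca2 and Tpx2 were not in the table used. The CHR letters TTTGAA or TTCGAA, on either strand, stood in 27 of the 34 promoters (79.4%) and in 21.7% of 27025 genes. CCAAT, on either strand, stood in 26 promoters (76.5%) and in 41.1% of all genes, and 2 or more stood in 55.9% of the 34 promoters and in 13.3% of all genes. Both motifs stood in 23 promoters (67.6%), against 9.65% of all genes, and 1 CHR match shared a base with a CCAAT match. Counting each site once in the 3 genes with 2 listed starts, 28 of 38 CHR matches lay between 100 bases before and 50 after a start, and 25 promoters (73.5%) had one there, against 9.87% of all genes. Neither set of letters stood in the windows of Birc5, Nuf2, Nusap1 and Tacc3. A match is a description of the letters and not a binding site.

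The windows of 8 genes are printed from 100 bases before to 25 after the RefSeq start, 5′ to 3′ on the strand of the gene, to show how the elements lie in genes of different roles that are described in the following paragraphs. Capitals mark the CHR letters and the CCAAT boxes of the searches described above, each also where it reads as the reverse complement. Cdk1, Ccnb2, Cdc20, Ube2c, Bub1, Cenpa and Kif11 each have a CHR match near the start, and Ccnb1 has CCAAT boxes only.
Cdk1 (GRCm38.p6 chr10:69352888-69353012, minus strand): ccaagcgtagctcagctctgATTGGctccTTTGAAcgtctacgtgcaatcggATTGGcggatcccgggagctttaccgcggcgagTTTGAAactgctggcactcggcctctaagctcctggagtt
Ccnb2 (GRCm38.p6 chr9:70421530-70421654, minus strand): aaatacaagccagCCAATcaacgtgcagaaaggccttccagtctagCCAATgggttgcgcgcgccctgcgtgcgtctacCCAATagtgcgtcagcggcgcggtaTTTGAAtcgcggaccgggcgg
Cdc20 (GRCm38.p6 chr4:118437319-118437443, minus strand): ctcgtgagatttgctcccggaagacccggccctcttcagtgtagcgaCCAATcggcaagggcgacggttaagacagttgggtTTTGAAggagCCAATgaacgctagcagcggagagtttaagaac
Ube2c (GRCm38.p6 chr2:164769829-164769953, plus strand): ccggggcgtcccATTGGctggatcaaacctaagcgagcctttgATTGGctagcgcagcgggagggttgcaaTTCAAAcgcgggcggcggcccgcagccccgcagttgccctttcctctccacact
Bub1 (GRCm38.p6 chr2:127831835-127831959, minus strand): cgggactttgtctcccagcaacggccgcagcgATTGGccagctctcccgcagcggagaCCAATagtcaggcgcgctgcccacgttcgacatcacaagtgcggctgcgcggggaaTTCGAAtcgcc
Cenpa (GRCm38.p6 chr5:30666786-30666910, plus strand): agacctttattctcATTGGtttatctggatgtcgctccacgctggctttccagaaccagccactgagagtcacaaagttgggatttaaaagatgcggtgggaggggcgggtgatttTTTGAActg
Kif11 (GRCm38.p6 chr19:37376282-37376406, plus strand): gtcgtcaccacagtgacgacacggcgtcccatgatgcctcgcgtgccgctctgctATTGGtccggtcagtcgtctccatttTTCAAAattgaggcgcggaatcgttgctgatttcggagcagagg
Ccnb1 (GRCm38.p6 chr13:100786462-100786586, minus strand): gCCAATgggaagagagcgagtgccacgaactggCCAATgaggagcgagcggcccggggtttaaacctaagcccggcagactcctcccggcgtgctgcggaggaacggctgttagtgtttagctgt

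**Figure D1:**
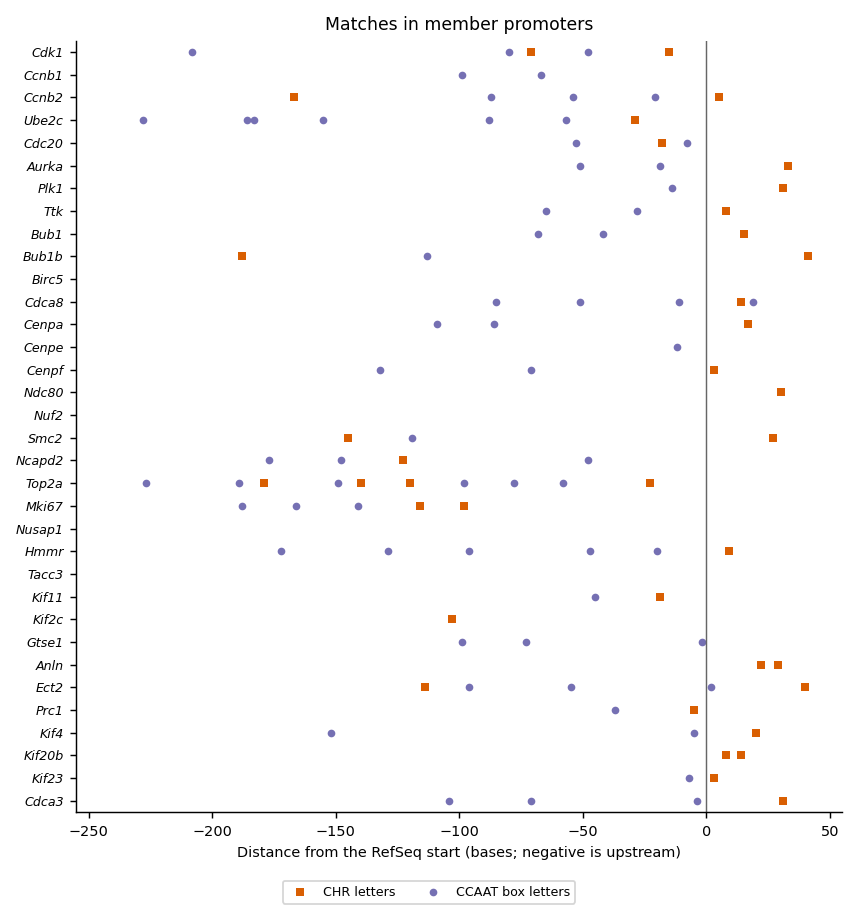
Each row is 1 of the 34 genes whose RefSeq promoter was searched, squares mark CHR letters and circles mark CCAAT letters, and the x axis is the distance from the start in bases. Each site is drawn once, from the start farther upstream where a gene has 2 listed. Of the 38 CHR matches, 28 lie between 100 bases before and 50 after a start, while the rows of Birc5, Nuf2, Nusap1 and Tacc3 are empty.

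Over all wells the 42 genes together were lower in Collagen I. They took 19.4 and 21.1 of every 10000 counts in the Collagen I plates (20.3 ± 1.19, SD, n = 2) and 43.1, 31.4 and 33.9 in the BME plates (36.1 ± 6.16, SD, n = 3), so that the BME mean was 1.78 times the Collagen I mean. Averaged over wells, so that deep wells weigh no more than shallow ones, the level was 15.9 and 16.1 per 10000 in Collagen I, against 34, 28.6 and 28.3 in BME. Because counts were summed over wells, fewer dividing cells and less RNA per dividing cell cannot be told apart in these sums. In edgeR's quasi-likelihood test, 26 of the 42 genes were lower in Collagen I at an adjusted p under 0.05 and 0 were higher, where 16.3% of the 11839 genes tested were lower and 15.5% higher. At an unadjusted p under 0.05, 34 of the 42 passed, where 5024 of the 11839 genes tested passed in either direction. DESeq2 called 25 lower and 0 higher, where it called 1422 of all genes tested lower and 1648 higher. In 36 genes both Collagen I plates lay below all BME plates, in 0 they lay above and in 6 the plates overlapped, where 31.9% of all genes tested had both Collagen I plates below. The median log2 fold change of the 42 was -0.76, against -0.03 over all genes tested. Without Collagen I replicate 1 the count of lower genes was 11.

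Cdk1, the kinase of mitotic entry, and its cyclins were lower in Collagen I for 3 of 4 members. Ccna2 (cyclin A2, the partner of Cdk1 and Cdk2 in S and G2 phase) had 53.2 and 52.6 CPM in the Collagen I plates, against 138, 123 and 126 CPM in the BME plates, which is -1.28 ± 0.16 as a log2 fold change with its SE (adjusted p = 5.08e-05). Cdk1 had 103 and 81.9 CPM in Collagen I, against 249, 157 and 176 CPM in BME, with a log2 fold change of -1.06 ± 0.21 (adjusted p = 0.0018). The groups did not overlap for either gene. Cyclin B1 (Ccnb1) had 67.2 and 57.5 CPM in Collagen I and 155, 120 and 123 CPM in BME (-1.08 ± 0.18, adjusted p = 5.23e-04), while Ccnb2, the Golgi-associated cyclin B, had plates that overlapped (-0.39 ± 0.24, adjusted p = 0.25).

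Transcripts of genes whose proteins hold and condense chromosomes were lower over all wells. All 5 members of this group (Smc2, Smc4, Ncapd2, Top2a and Mki67) passed the test over all wells. Mki67, which coats mitotic chromosomes and gives the Ki-67 proliferation stain, had 91 and 96.5 CPM in Collagen I, against 279, 189 and 218 CPM in BME (-1.29 ± 0.19, adjusted p = 2.15e-04). Top2a, the topoisomerase that untangles sister chromatids, had 102 and 117 CPM in Collagen I, against 288, 184 and 220 CPM in BME (-1.08 ± 0.20, adjusted p = 0.00118). Ncapd2, a subunit of condensin I, differed less, with 71.3 and 76 CPM in Collagen I, against 161, 94.4 and 103 CPM in BME (-0.70 ± 0.23, adjusted p = 0.0348).

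Within the chromosomal passenger complex, which corrects faulty attachments of chromosomes to the spindle, 2 of 3 members were lower. Birc5 (survivin) had 90.2 and 96.5 CPM in Collagen I, against 246, 222 and 233 CPM in BME, and the smallest adjusted p of the 42 genes (log2 fold change -1.32 ± 0.15, adjusted p = 2.20e-05). The kinase of the complex, Aurkb, had 14.0 and 20.5 CPM in Collagen I, against 55.5, 44.1 and 45.5 CPM in BME (-1.52 ± 0.25, adjusted p = 4.40e-04). Both plates of Collagen I stood apart from BME for these genes. Among the mitotic kinases, 4 of 6 were lower. The spindle checkpoint kinase Ttk had the largest fold change of all 42 genes at low counts (4.2 and 6.82 CPM in Collagen I, against 17.1, 14.6 and 15.3 CPM in BME, -1.55 ± 0.35, adjusted p = 0.00456). Pbk, a kinase active in mitosis, followed with -1.23 ± 0.18 (adjusted p = 1.72e-04). Plk1, the Polo-like kinase, had 47.6 and 47.7 CPM in Collagen I, against 104, 63 and 66.7 CPM in BME (-0.71 ± 0.24, adjusted p = 0.0391).

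Over all wells 1 of the 2 partners of the anaphase-promoting complex and 1 of the 5 centromere and kinetochore genes were lower. Cdc20 had 58.7 and 71.1 CPM in Collagen I, against 64, 75.7 and 69.4 CPM in BME, where the plates overlapped, and it did not pass the test (-0.11 ± 0.17, adjusted p = 0.66). Ube2c had 162 and 143 CPM in Collagen I, against 251, 192 and 198 CPM in BME (-0.48 ± 0.16, adjusted p = 0.0356). Nuf2, a kinetochore gene, passed (-1.29 ± 0.25, adjusted p = 0.0014). Cenpa, the histone H3 variant that marks centromeres, had 97.9 and 140 CPM in Collagen I, against 212, 153 and 151 CPM in BME (-0.54 ± 0.20, adjusted p = 0.0582). Among 7 spindle and motor genes 4 were lower, with the largest change in Kif11, the motor that separates spindle poles (-1.26 ± 0.26), and among 7 genes of the central spindle and cytokinesis 5 were lower. Of the 3 genes left, Cdca3 was lower.

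In basal wells 31 of the 42 genes were lower in Collagen I. The 42 genes took 11.8 and 9.37 of every 10000 counts in basal wells of Collagen I (10.6 ± 1.75, SD, n = 2) and 37.9, 22.9 and 37 in basal wells of BME (32.6 ± 8.40, SD, n = 3), where the BME mean was 3.07 times the Collagen I mean. By edgeR's test 31 were lower and 0 were higher, where 8.31% of the 10296 genes tested were lower and 10.8% higher. At an unadjusted p under 0.05, 38 passed, where 3306 of the 10296 genes tested passed in either direction. DESeq2 called 26 lower and 0 higher, where it called 497 of all genes tested lower and 870 higher. The plates stood apart, with both Collagen I plates lower, in 37 genes, where the same held for 29.7% of all genes tested. The median log2 fold change was -1.63, against -0.03 over all genes. The counts behind the values were few in Collagen I, from 0 to 33 per gene and plate, against 32 to 672 in BME. Without Collagen I replicate 1 or 3, 17 or 12 genes were lower. Basal wells differed between the matrices in another way too. All 6 luminal markers (Krt8, Krt18, Krt19, Cd14, Epcam and Csn3) summed to 3900 and 3935 CPM in basal wells of Collagen I, close to the 4126 and 4522 CPM of non-basal wells there, and to 1254, 1150 and 1211 CPM in basal wells of BME, with Csn3 at 0 in 1 BME plate. The 6 basal markers summed to 3261 and 3852 CPM in Collagen I and 3437, 3070 and 2555 CPM in BME. Basal wells whose label rested on a single keratin UMI were 13.6% and 13.8% in Collagen I and 7.29%, 14.0% and 7.61% in BME.

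Cyclin B1 had the largest change among the cyclins in basal wells. Ccnb1 had 29.7 and 10.6 CPM in Collagen I (12 and 4 counts), against 146, 95.8 and 147 CPM in BME, 6.14-fold lower (log2 fold change -2.62 ± 0.36, adjusted p = 1.53e-05). Cdk1 had 64.5 and 29.3 CPM in Collagen I, against 222, 114 and 184 CPM in BME, and Ccna2 had 37.2 and 26.6 CPM, against 109, 85.7 and 122 CPM. Cdk1 changed by -1.84 ± 0.33 (adjusted p = 3.46e-04) and Ccna2 by -1.67 ± 0.30 (adjusted p = 2.97e-04) on the log2 scale. For all 3 genes every BME plate lay above both Collagen I plates. Ccnb2 missed the threshold narrowly (-1.11 ± 0.39, adjusted p = 0.0504).

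Both partners of the anaphase-promoting complex were lower in basal wells. Ube2c had 64.5 and 53.2 CPM in Collagen I, against 251, 141 and 217 CPM in BME (-1.74 ± 0.28, adjusted p = 1.11e-04). Cdc20, which did not pass over all wells, had 19.8 and 24.0 CPM in Collagen I, against 51.8, 43.2 and 68.3 CPM in BME (-1.27 ± 0.37, adjusted p = 0.0168). In the kinase group Plk1 had 24.8 and 13.3 CPM in Collagen I, against 84.9, 45.3 and 67.1 CPM in BME (-1.72 ± 0.40, adjusted p = 0.00402). Pbk and the checkpoint genes Bub1 and Bub1b also passed, and Aurka and Ttk did not (adjusted p = 0.0719 and 0.0693). Ttk had 0 counts in 1 Collagen I plate and 3 in the other, and its pooled level was 0.242 of that in BME with an exact counting interval of 0.0492 to 0.725. Such an interval covers counting error only and not the spread between wells or plates.

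Chromosome structure genes again passed in full. Top2a had 47.1 and 31.9 CPM in basal wells of Collagen I, against 258, 142 and 241 CPM in BME, 5.22-fold lower (-2.38 ± 0.32, adjusted p = 1.04e-05), and Mki67 had 57 and 47.9 CPM, against 237, 143 and 264 CPM (-1.99 ± 0.30, adjusted p = 3.98e-05). The other 3 ranged from -1.25 (Ncapd2, 39.7 and 45.3 CPM in Collagen I, against 146, 63.2 and 105 CPM in BME, adjusted p = 0.0167) to -1.46 (Smc4). Birc5 had 66.9 and 24.0 CPM in Collagen I, against 210, 166 and 250 CPM in BME (-2.14 ± 0.30, adjusted p = 1.88e-05), and Aurkb had 14.9 and 5.32 CPM, against 46, 28.2 and 44.4 CPM (-1.89 ± 0.49, adjusted p = 0.00859). Cdca8, the third member of the passenger complex listed, did not pass (-0.66 ± 0.32, adjusted p = 0.16).

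All 5 centromere and kinetochore genes were lower in basal wells. They include Cenpa, with 69.4 and 87.9 CPM in Collagen I, against 214, 119 and 192 CPM in BME (-1.11 ± 0.28, adjusted p = 0.00608), and Nuf2, a subunit of the Ndc80 complex that grips microtubules, with 9.91 and 2.66 CPM, against 39.2, 25.3 and 38.4 CPM (-2.36 ± 0.55, adjusted p = 0.00406). Of the spindle and motor genes 5 of 7 passed, and 3 of these had the fewest counts. Kif2c, a motor that takes microtubules apart at kinetochores, had 4.96 and 2.66 CPM in Collagen I, which are 2 and 1 counts, against 26.6, 18.6 and 29.4 CPM in BME. Its pooled level in Collagen I was 0.157 of that in BME, with an exact counting interval of 0.0321 to 0.466 that again covers counting error only. The log2 fold change of Kif2c by edgeR was -2.62 ± 0.65 (adjusted p = 0.00616). Nusap1, which bundles spindle microtubules, had 2 counts in each Collagen I plate (4.96 and 5.32 CPM, against 34.9, 23.9 and 36.5 CPM in BME, -2.56 ± 0.57, adjusted p = 0.00268). Kif11 had 12.4 and 2.66 CPM in Collagen I, against 42.1, 31 and 43.6 CPM in BME (-2.28 ± 0.51, adjusted p = 0.00271). Hmmr and Gtse1 did not pass, and the plates of both genes overlapped.

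Of the 7 genes of the central spindle and cytokinesis, Ect2, Prc1, Kif20b and Kif23 were lower in basal wells. Kif20b, a motor needed for the last step of cytokinesis, had 4.96 and 7.99 CPM in Collagen I, against 44.5, 25.3 and 47.5 CPM in BME (-2.55 ± 0.57, adjusted p = 0.00277). Anln, the scaffold of the contractile ring, had 49.6 and 47.9 CPM in Collagen I, against 76.1, 44.3 and 85.3 CPM in BME, where the plates overlapped (-0.44 ± 0.32, adjusted p = 0.37).

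In non-basal wells 18 of the 42 genes were lower in Collagen I. The 42 genes took 24.3 and 26.6 of every 10000 counts in Collagen I (25.5 ± 1.60, SD, n = 2) and 44.2, 35.6 and 32.6 in BME (37.5 ± 6.01, SD, n = 3), where the BME mean was 1.47 times the Collagen I mean. By edgeR's test 18 were lower and 0 higher, where 13.9% of the 11076 genes tested were lower and 14.1% higher. At an unadjusted p under 0.05, 24 passed, where 4363 of the 11076 genes tested passed in either direction. DESeq2 called 12 lower and 0 higher, where it called 1021 of all genes tested lower and 1401 higher. Both Collagen I plates lay below all BME plates in 27 genes, where this held for 31.8% of all genes tested. They lay above in 1 gene, Cdca2, which did not pass the test (0.51 ± 0.31, adjusted p = 0.24). The median log2 fold change was -0.56, against -0.03 over all genes. Without Collagen I replicate 1 or 3, 5 or 10 genes were lower. Summed luminal markers were at 4126 and 4522 CPM in Collagen I and 2811, 2499 and 2438 CPM in BME, and all 6 were above 0 in every plate.

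Birc5 and Aurkb, the passenger complex genes, stood apart again. Birc5 had 107 and 111 CPM in non-basal wells of Collagen I, against 256, 257 and 232 CPM in BME (-1.17 ± 0.16, adjusted p = 6.74e-05). Aurkb had 16.5 and 26.3 CPM, against 58.5, 50.4 and 47.3 CPM (-1.33 ± 0.28, adjusted p = 0.00222). Pbk had 47.2 and 32 CPM in Collagen I, against 101, 97.4 and 92.4 CPM in BME (-1.23 ± 0.21, adjusted p = 3.87e-04), and both plates of each gene were below every BME plate. Mki67 had 116 and 117 CPM in Collagen I, against 292, 218 and 204 CPM in BME (-1.02 ± 0.20, adjusted p = 0.00111), and Ccna2 had 66 and 73.4 CPM, against 149, 144 and 131 CPM (-1.01 ± 0.18, adjusted p = 6.44e-04). Ttk, Gtse1, Anln and Nuf2 were the other genes with a large change (-1.21, -1.14, -1.09 and -1.07). Gtse1, which restrains p53 in G2, and Anln passed here and not in basal wells. Top2a, Ccnb1 and Cdk1 passed with smaller changes. Top2a had 132 and 156 CPM in Collagen I, against 282, 201 and 205 CPM in BME (-0.66 ± 0.20, adjusted p = 0.0187), Ccnb1 had 89.7 and 73.4 CPM, against 154, 131 and 110 CPM (-0.66 ± 0.20, adjusted p = 0.021), and Cdk1 had 137 and 128 CPM, against 254, 175 and 174 CPM (-0.58 ± 0.20, adjusted p = 0.0388).

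Several genes had overlapping plates in non-basal wells. Ube2c had 229 and 190 CPM in Collagen I, within the range of 243, 211 and 182 CPM in BME (0.01 ± 0.17, adjusted p = 0.98). Cdc20 had 76.6 and 97.8 CPM in Collagen I, against 69.9, 94.9 and 73.8 CPM in BME (0.14 ± 0.20, adjusted p = 0.66), and Cenpa had 117 and 166 CPM, against 210, 170 and 138 CPM (-0.29 ± 0.21, adjusted p = 0.33). The sign for Ube2c turned under other scalings and without single plates, and that for Cdc20 turned without the top 5% of wells or without Collagen I replicate 3. Plk1 had 61.3 and 75.3 CPM in Collagen I, against 106, 71.6 and 66.6 CPM in BME (-0.26 ± 0.25, adjusted p = 0.46). Ncapd2 had 89.6 and 90.3 CPM, against 167, 111 and 104 CPM (-0.49 ± 0.23, adjusted p = 0.12), with its plates apart. In both classes 15 genes were lower by the test, 16 passed in basal wells and not in non-basal wells, 3 the other way round (Anln, Ttk and Gtse1), and 8 in neither. Passing in one class and not in the other does not show that the classes differ, which was tested separately.

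**Figure D2:**
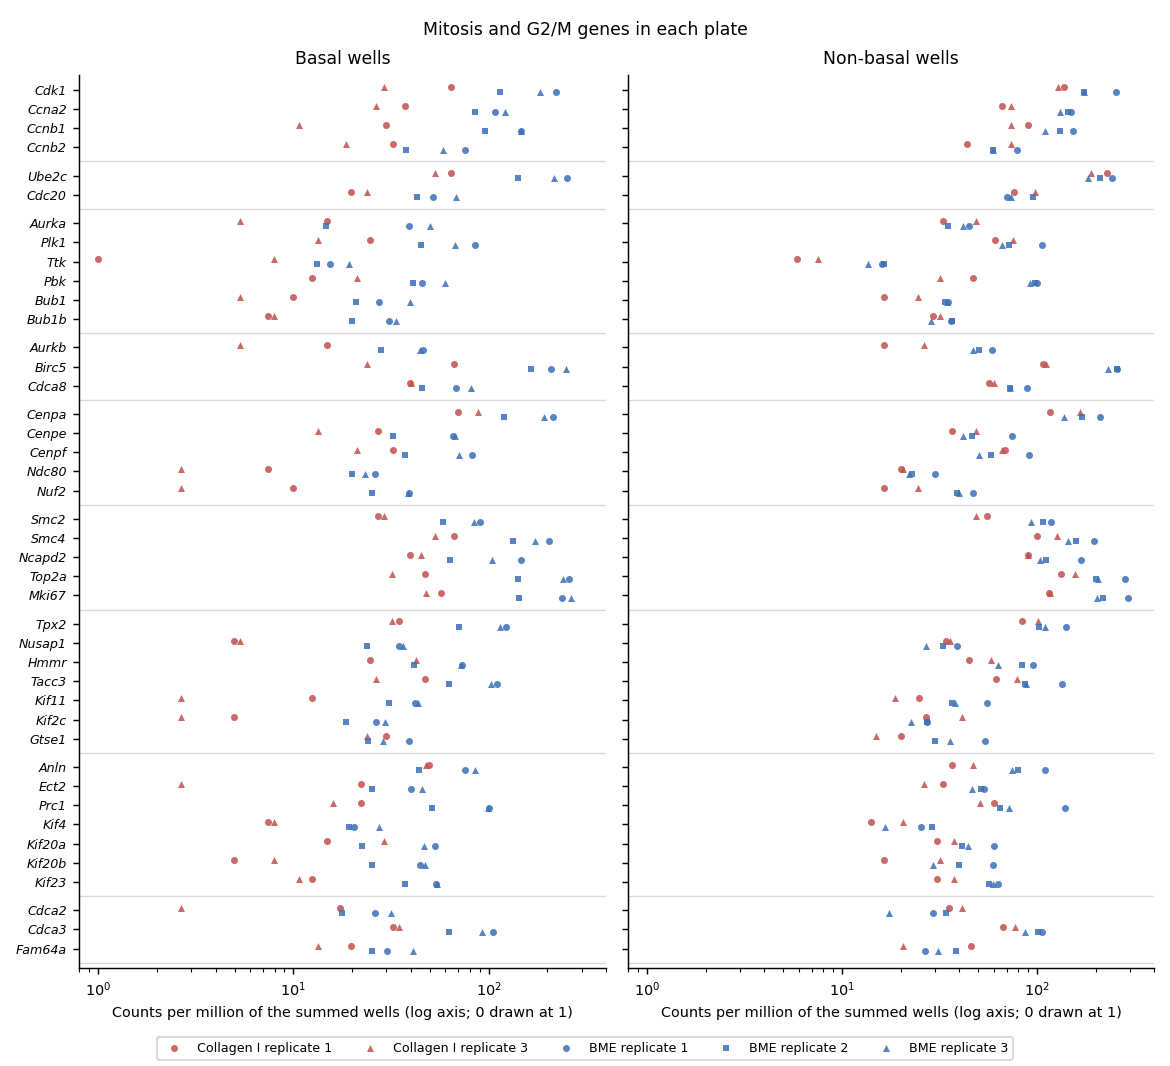
Each point is the level of a gene in 1 plate, in CPM of the summed basal (left) or non-basal (right) wells on a log axis, with Collagen I plates in red and BME plates in blue and grey lines between the role groups. The Collagen I plates lie below all BME plates for 37 of the 42 genes in basal wells and for 27 in non-basal wells.

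The difference between the matrix effects of basal and non-basal wells was tested as a class by matrix term, with plate as a blocking factor. It was negative at an adjusted p under 0.05 for 10 of the 42 genes and positive for 0, where 2.81% of the 10862 genes tested were negative and 1.45% positive. At an unadjusted p under 0.05, 29 passed, where 1688 of the 10862 genes tested passed in either direction. DESeq2 called 5 negative, where it called 143 of all genes tested negative and 106 positive. The median over the 42 was -1.11 on the log2 scale, against -0.08 over all genes. Of the 10 that passed, the 8 with the largest values were Kif2c (-3.10 ± 0.71), Nusap1 (-2.75 ± 0.65), Ccnb1 (-2.00 ± 0.42), Ube2c (-1.79 ± 0.28), Top2a (-1.76 ± 0.31), Plk1 (-1.53 ± 0.41), Cdc20 (-1.48 ± 0.42) and Tpx2 (-1.29 ± 0.32). Values in the same range that did not pass included those of Ndc80 (-1.90) and Kif20b (-1.83). The values of Kif2c and Nusap1 rested on 3 and 4 counts in basal wells of Collagen I, both plates together. Ube2c, with overlapping plates in non-basal wells, had an adjusted p of 7.84e-05. For Birc5 and Mki67 the values were -1.0 ± 0.34 and -1.02 ± 0.34, and they did not pass (adjusted p = 0.0965 and 0.0881). Aurkb, Ccna2, Cenpa and Ncapd2 did not pass either (-0.64, -0.72, -0.89 and -0.82). This result depended on how wells were classed and on single plates. With classes taken from wells thinned to 2000 UMIs each, 0 genes passed (edgeR, 4 of the 42 at an unadjusted p under 0.05), where 0.668% of all genes tested were negative, and the median was -0.32. The basal median was then -0.92 and the non-basal median -0.68, and 18 genes were lower in each class, where 8.41% of all genes tested were lower in basal and 12.6% in non-basal wells. Without Collagen I replicate 1 or 3, 3 or 1 genes passed, and without BME replicate 2, 17 did.

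**Figure D3:**
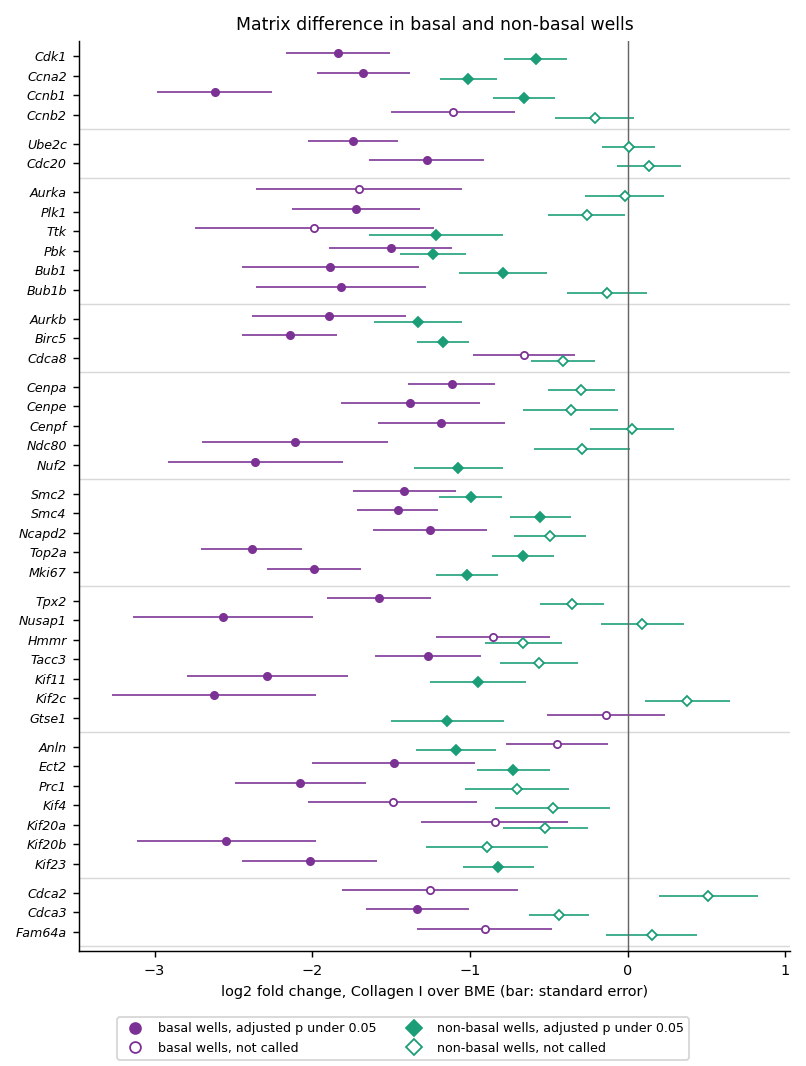
Points give the log2 fold change of Collagen I over BME for each gene in basal wells (circles) and non-basal wells (diamonds), filled where the adjusted p is under 0.05, with bars of 1 standard error. All 42 basal values are below 0, with a median of -1.63, and the non-basal values have a median of -0.56.

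Of the 42 genes, 13 were lower in basal than in non-basal wells of the same plates and 0 were higher in the fit with the plate as a block, where 15.2% of the 10001 genes tested were lower and 14.0% higher, and the median was -0.36, against -0.03 over all genes. The largest change was that of Pbk (-1.06 ± 0.13, adjusted p = 4.62e-05), with 12.4 and 21.3 CPM in basal wells of the Collagen I plates, against 47.2 and 32 CPM in their non-basal wells, and 45.5, 41 and 60.0 CPM in basal wells of the BME plates, against 101, 97.4 and 92.4 CPM in non-basal wells. Pbk was lower in basal wells of all 5 plates. Of the genes that passed, Cdc20 followed (-0.78 ± 0.19, adjusted p = 0.00682), and then Ect2, Ccna2, Smc2, Plk1, Cdk1 and Aurkb (-0.56 to -0.49). Mki67, Top2a, Ccnb1, Ube2c and Cenpa did not pass (-0.38, -0.46, -0.29, -0.50 and -0.21), and Birc5 and Ncapd2 did (both -0.47, adjusted p = 0.0481 and 0.021). Within the BME plates alone 13 of 42 genes were lower in basal wells with a median of -0.24, where 18.1% of all genes tested were lower. Within the Collagen I plates alone 23 of the 33 genes tested were lower with a median of -1.25, where 4.07% of all genes tested were lower. Both of these fits were chosen after seeing the data. In the Collagen I fit the filter on low counts could be passed through 1 class alone. Nusap1, for example, had 4.96 and 5.32 CPM in basal wells there and 34.2 and 35.7 CPM in non-basal wells. The 23 genes and the median of that fit therefore lean towards lower in basal wells. Without the plate as a block 0 of the 42 passed (edgeR, 2 at an unadjusted p under 0.05). Without BME replicate 2, 1 gene was lower, and without BME replicate 3, 26 were. In BME replicate 3 the 42 genes together went the other way. They took 37 of every 10000 counts in its basal wells, against 32.6 in its non-basal wells. In BME replicate 1 they took 37.9, against 44.2, and in BME replicate 2 22.9, against 35.6. In the Collagen I plates they took 11.8 and 9.37 in basal wells, against 24.3 and 26.6 in non-basal wells. Summed luminal markers in basal against non-basal wells of the Collagen I plates were as given above, and in the BME plates they were 1254, 1150 and 1211 CPM in basal wells and 2811, 2499 and 2438 CPM in non-basal wells.

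To put wells of different depth on 1 scale, each well with at least 2000 UMIs was thinned to 2000, and a well with 4 or more UMIs of the 42 genes was called module-high. Over all wells 17.9% (39 of 218) and 22.9% (46 of 201) were module-high in Collagen I (20.4 ± 3.53, SD, n = 2), against 52.4% (150 of 286), 45.1% (115 of 255) and 48.6% (126 of 259) in BME (48.7 ± 3.68, SD, n = 3). The exact 95% intervals of the 2 Collagen I plates did not reach those of the BME plates, and they cover counting error only. In basal wells the shares were 13% (9 of 69) and 9.88% (8 of 81) in Collagen I, against 41.2% (35 of 85), 28.3% (26 of 92) and 50% (40 of 80) in BME. In non-basal wells they were 21.8% (26 of 119) and 30.9% (30 of 97), against 59.5% (100 of 168), 56.8% (71 of 125) and 46.9% (68 of 145). Both Collagen I plates lay below every BME plate in each class. No test is given because the share is a score over the genes themselves. Wells with fewer than 2000 UMIs were left out, which were 33 and 104 in the Collagen I plates and 33, 63 and 48 in the BME plates. Without thinning, at 20 or more per 10000 counts, the shares averaged 17.4% ± 0.919 in Collagen I (SD, n = 2) and 47.9% ± 1.76 in BME (SD, n = 3). The size of the difference depended on the limit. At 8 or more UMIs of the thinned wells the shares averaged 15.4% ± 4.26 in Collagen I and 29.5% ± 3.30 in BME, and in non-basal wells the higher Collagen I plate was at 25.8%, against 28.3% in the lowest BME plate. At 2 or more they averaged 33.3% ± 2.92 in Collagen I and 69.8% ± 2.63 in BME.

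The plates of the 2 matrices lay farther apart at 0 and at 4 to 7 UMIs than at the highest scores. Wells with 0 UMIs of the 42 genes were 44.5% and 39.8% in Collagen I, against 13.3%, 12.5% and 16.2% in BME. Wells with 4 to 7 UMIs were 5.50% and 4.48% in Collagen I, against 19.6%, 18.8% and 19.3% in BME. At 16 or more UMIs the plates came nearer to each other, with 7.34% and 8.46% in Collagen I and 14.3%, 9.80% and 10.8% in BME. The highest well held 35 and 33 UMIs in the Collagen I plates and 45, 29 and 34 in the BME plates, so that the top scores overlapped.

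**Figure D4:**
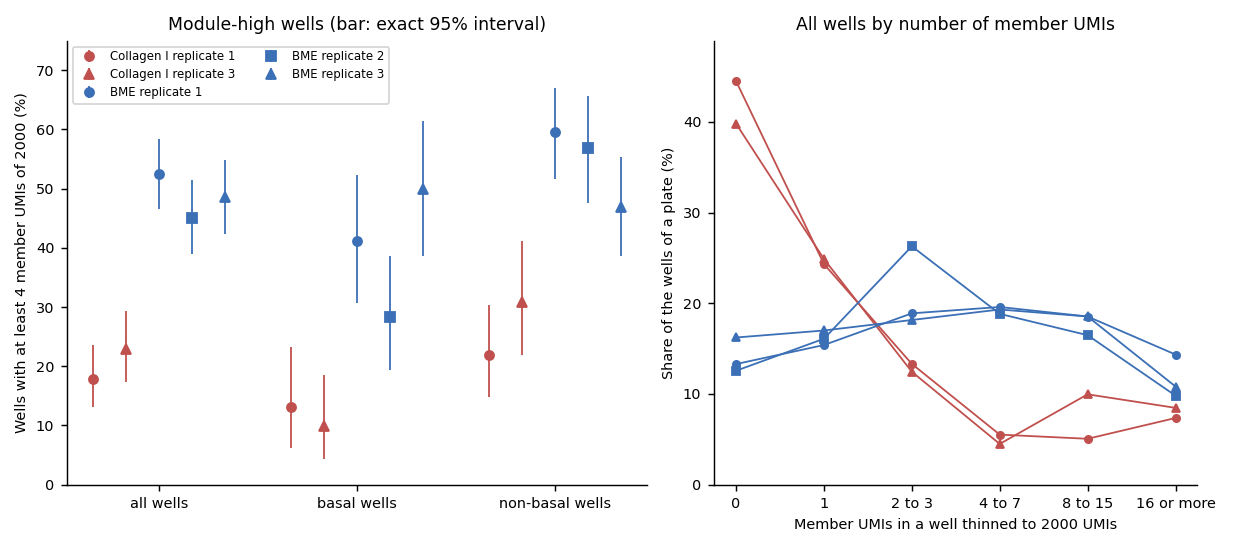
On the left, points are the share of module-high wells in each plate (percent of wells thinned to 2000 UMIs) with exact 95% intervals, and on the right, lines give the share of wells at each number of UMIs of the 42 genes. Collagen I plates lie at 17.9% and 22.9% over all wells and BME plates at 45.1% to 52.4%, and the wells with 0 UMIs make up 39.8% and 44.5% in Collagen I.

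Module-high wells were compared with the other thinned wells of their own plate, as a description since they were picked by the 42 genes. Their median counts were 1.5 and 1.35 times those of other wells in the Collagen I plates, and 1.71, 1.24 and 1.36 times in the BME plates. Per ERCC count the ratios were 1.36 and 1.17 in Collagen I and 1.62, 1.61 and 1.48 in BME. Genes of DNA replication and S phase took 22.4 and 19.6 per 10000 in module-high wells of Collagen I, against 6.82 and 5.32 in the other wells. In BME they took 34.3, 35.8 and 34.8 per 10000 in module-high wells, against 16, 16.8 and 16.2 in the other wells. S phase genes were thus higher in module-high wells of each plate, and the ratio was 3.29 and 3.68 in Collagen I and 2.15, 2.13 and 2.15 in BME.

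The make-up of the summed member counts in module-high wells was compared between the matrices as a description, since the 42 genes picked these wells. In 14 of the 42 genes both Collagen I plates held a higher share of these counts than every BME plate, in 12 a lower share, and in 16 the plates overlapped. No share over all genes was computed to set beside these numbers, so they do not show a difference beyond the spread of so few plates. Some genes had few counts in Collagen I, such as Ttk (4 and 6), Kif20b (13 and 25) and Ndc80 (20 and 14). By role, the 14 held both partners of the anaphase-promoting complex, 3 of the 5 centromere and kinetochore genes (Nuf2 was lower and Ndc80 overlapped), 0 of the 5 chromosome structure genes and 0 of the 7 genes of the central spindle and cytokinesis. Ube2c took 7.64% ± 1.00 of the member counts in Collagen I (SD, n = 2), against 6.07% ± 0.241 in BME (SD, n = 3), Cdc20 took 3.51%, against 2.07%, and Cenpa took 5.79%, against 4.64%. Aurka, the spindle pole kinase, took 1.83% in Collagen I and 1.16% in BME, and Cenpe, Cenpf, Ccnb2, Cdca8, Tpx2, Kif2c, Bub1b, Cdca2, Cdca3 and Fam64a were higher too. The 12 with a lower share included Mki67 with 4.47%, against 6.24%, Birc5 with 4.78%, against 6.48%, Ccna2 with 2.78%, against 3.76%, and Smc4 with 3.19%, against 4.12%. Cdk1, Aurkb, Smc2, Ttk, Nuf2, Kif11, Hmmr and Kif23 made up the rest of these. Shares sum to a fixed total, so that a higher share of one gene lowers the others.

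**Figure D5:**
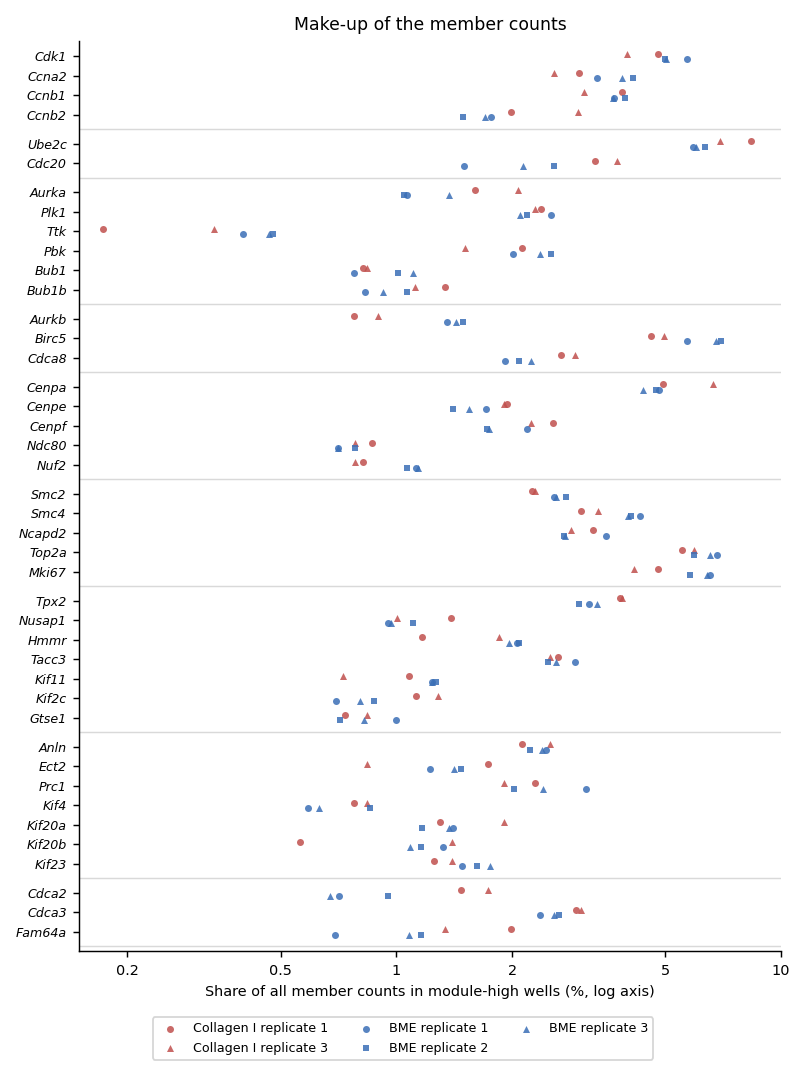
Each point is the share of the summed counts of the 42 genes (percent, log axis) that a gene took in module-high wells of 1 plate, with Collagen I plates in red and BME plates in blue and grey lines between the role groups. Ube2c, Cdc20 and Cenpa lie to the right in Collagen I, and Mki67, Birc5 and Ccna2 to the left.

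Across wells of a plate the genes varied together to different degrees. The Pearson correlation of the thinned counts of a gene with the sum of the other 41, over the 201 to 286 wells of a plate, was 0.686 and 0.655 for Ube2c in the Collagen I plates and 0.573, 0.527 and 0.548 in the BME plates. For Top2a it was 0.622 and 0.515 in Collagen I and 0.560, 0.515 and 0.536 in BME, and for Cdc20 0.548 and 0.544, against 0.369, 0.280 and 0.302. Ttk, with few counts, had 0.233 and 0.208 in Collagen I and 0.0471, 0.168 and 0.119 in BME. These values describe wells that share a library, and a low value in sparse counts is no finding.

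Other genes of the cycle were examined from lists that, like the 42 genes, were chosen with earlier results of these data known. Of 59 further G2/M genes, 34 were lower in Collagen I over all wells and 0 higher (median -0.90). In basal wells 27 of 58 were lower and 0 higher, and in non-basal wells 19 of 59 were lower and Gas2l3, which tethers microtubules to actin, was higher, with 33 and 37.6 CPM in Collagen I, against 19.4, 18.3 and 18.7 CPM in BME (0.91 ± 0.26, adjusted p = 0.0147). Genes of S phase were lower over all wells for 28 of 28 (median -1.45). In this list 23 were lower in basal wells (median -1.45) and 27 in non-basal wells (median -1.37), and the median of the difference between the classes was -0.20. To set beside both lists, 16.3% of all genes tested were lower over all wells, 8.31% in basal wells and 13.9% in non-basal wells.

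Regulators of the transcripts in G2 and mitosis were lower for 6 of 19 over all wells and higher for 3, where 16.3% of all genes tested were lower and 15.5% higher, so that the count of higher genes was near the background. Foxm1 and Mybl2 (B-Myb), which act with MuvB at CHR elements, were lower. Mybl2 had 6.29 and 3.90 CPM in Collagen I, against 26, 25.5 and 23.8 CPM in BME (-2.25 ± 0.31, adjusted p = 1.27e-04), and Foxm1 had 16.1 and 12.7 CPM, against 29.9, 26.8 and 23 CPM (-0.86 ± 0.26, adjusted p = 0.0201). Rbl1 (p107), a pocket protein, was at 16.1 and 18.5 CPM in Collagen I, against 51.8, 54.7 and 51.6 CPM in BME (-1.62 ± 0.21, adjusted p = 6.43e-05). The 3 higher genes encode inhibitors of cyclin-dependent kinases. Cdkn1a (p21) had 315 and 365 CPM in Collagen I, against 143, 71.3 and 88.8 CPM in BME (1.75 ± 0.23, adjusted p = 8.73e-05). Cdkn2a, which encodes p16 and p19Arf, had 103 and 73.1 CPM, against 14.8, 19.4 and 15.4 CPM (2.43 ± 0.19, adjusted p = 8.61e-07), and Cdkn1b (p27) had 60.1 and 58.5 CPM, against 35.5, 35.3 and 32.9 CPM (0.78 ± 0.16, adjusted p = 0.00266). In basal wells Cdkn1a had 322 and 463 CPM in Collagen I, against 55.2, 47.8 and 40.0 CPM in BME. It was the single regulator with a difference between the classes (1.65 ± 0.20, adjusted p = 1.23e-06), with 301 and 305 CPM in non-basal wells of Collagen I, against 179, 85 and 112 CPM in BME.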

How the data were processed

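Single-cell SORT-seq data of 2 Collagen I plates and 3 BME plates were used. Per the labels, libraries followed CEL-Seq2, and the submitters' processing notes name BWA and mm10, with versions not given in the sources used here. The values the authors deposited are expected counts, that is, estimated transcripts per gene and well without normalization between wells or plates. Each value follows from a whole number of UMIs after a saturation correction, which for 6-base UMIs matched 99.9% to 100% of the values (within 0.05), whereas the labels describe shorter UMIs. Wells with more than 500 counts without ERCC, fewer than 8000 genes and under 10% of counts in genes named mt- were kept. The prefix covers 24 of the 37 chromosome M genes, since the protein-coding ones are named otherwise, and the limit removed 46 wells. Over all 37 genes 165 of the 556 kept Collagen I wells and 782 of the 944 kept BME wells held 10% or more. Doublets were not called, and the fits were repeated without the 5% of wells with most counts. The 42 genes, the other gene lists and the well classes were chosen with earlier results of these data known.

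Counts were summed per plate and well class, rounded, and compared with edgeR 4.0.16 (R 4.3.3, limma 3.58.1; TMM, filterByExpr, quasi-likelihood test, Benjamini-Hochberg adjustment over all genes tested). Standard errors were derived from each log2 fold change and its F statistic. The sums held 1430023 and 1026495 counts in the Collagen I plates and 8104849 to 9084335 in the BME plates. The tests were tried on simulated data first. Per-plate values are given for 12 genes fixed by name and, for each comparison, for up to 8 called genes with the largest change in each direction. The alternatives were DESeq2 1.42.0, RLE size factors, library size only, a table without ribosomal and chromosome M genes, Rn45s, Malat1 and Lars2, no filter, the saturation correction undone, thinned wells, more than 2000 counts per well, the top 5% left out, a replicate or plate block added or dropped, stricter or equal-depth classes, other score limits and each plate left out. Positions are from GENCODE vM21 and were found for all 42 genes on the chromosome that the files give. Shares and figures were made in Python 3.11.15 (pandas 2.3.3, numpy 2.4.6, scipy 1.17.1, matplotlib 3.10.9).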

Additional observations from a re-analysis of the deposited data

Results flagged for a closer look

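The matrix effect differed between basal and non-basal wells, by the test of the interaction in edgeR, for 10 of the 42 genes. On the log2 scale the difference, basal minus non-basal, was -3.10 for Kif2c, -2.75 for Nusap1, -2.00 for Ccnb1, -1.79 for Ube2c, -1.76 for Top2a, -1.53 for Plk1, -1.48 for Cdc20, -1.29 for Tpx2, -1.28 for Cdk1 and -0.96 for Smc4. The values of Kif2c and Nusap1 rested on 3 and 4 counts in basal wells of Collagen I, both plates together. Each of the 10 genes was lower in Collagen I in basal wells, and Ccnb1, Top2a, Cdk1 and Smc4 were lower in non-basal wells too. The sum of luminal markers in basal wells, 3900 and 3935 CPM in Collagen I and 1254, 1150 and 1211 CPM in BME, differed along with it, and its part was not tested. With classes from wells of equal depth, 0 of the 42 genes passed (edgeR, 4 at an unadjusted p under 0.05).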

How the results depend on the processing

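The count of genes lower in Collagen I was 26 over all wells, 31 in basal and 18 in non-basal wells. With wells thinned to 2000 UMIs it was 17, 12 and 7 (of 41, 16 and 31 genes tested, since shallower wells leave fewer genes past the filter). A gene could pass this filter through its BME level alone, so that the count in basal wells leans towards lower in Collagen I. Top2a, for example, had 47.1 and 31.9 CPM in basal wells of Collagen I, against 258, 142 and 241 CPM in BME. Leaving out single plates gave 11 to 32, 12 to 39 and 5 to 19. In basal wells stricter classes gave 20 and classes from thinned wells 18. The count lower in basal than in non-basal wells (13) was 7 with library size only, 8 without ribosomal and related genes, 26 without a filter, 1 with thinned wells, 5 without the top 5% of wells, 0 without the plate block, 28 with stricter classes, 21 with thinned classes, 23 in Collagen I plates alone and 1 to 26 without single plates. The count with a difference between the classes (10) was 5 with DESeq2, 17 without a filter, 1 with thinned wells, 2 without the top 5%, 4 with stricter classes, 0 with thinned classes and 1 to 17 without single plates. Over all genes tested, 1290 of 10001 were lower in basal wells with library size only and 1360 of 9883 without ribosomal and related genes. Without a filter 1870 of 17840 were lower, with thinned classes 11.2% and in Collagen I plates alone 4.07%. For the difference between the classes, 143 of 10862 were negative with DESeq2, 307 of 17840 without a filter and 0.668% with thinned classes. No such share is given here for the other settings. The cause of the changes in these counts was not tested otherwise. The share of module-high wells, Collagen I minus BME, was -28.3 percentage points over all, -28.4 in basal and -28.0 in non-basal wells. With at least 2 UMIs it was -36.6 over all and -36.4 in non-basal wells, and with at least 8 it was -14.1, -17.9 and -11.8. Shares by thinned classes and the fits within 1 matrix were chosen after seeing the data.

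Plates of the 2 matrices share 2 replicate numbers. The deviations of same-numbered plates from the means of their matrices had r = -0.01 (replicate 1) and 0.01 (replicate 3). With 2 Collagen I plates the deviations of one are the exact opposite of the other's. The 2 values are therefore not independent and cannot decide whether same-numbered plates are paired. With a replicate block 34, 39 and 21 genes were lower over all, in basal and in non-basal wells, where 16.2%, 8.54% and 13.3% of all genes tested were lower. BME replicate 2 has no Collagen I plate of its number here, so this block fits it exactly and little is left to estimate the spread.

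For the named genes, 1105 of 1327 values over the alternatives kept their sign and side of the threshold, 173 lost the call, 31 gained it and 18 changed sign. Ube2c in non-basal wells (0.01) was -0.13 with stricter classes, -0.24 with thinned classes, -0.0079 with library size only, -0.088 without a filter, -0.011 with the block, -0.0037 without ribosomal and related genes, -0.18 without the top 5% and -0.12 to 0.14 without single plates. Cdc20 over all wells (-0.11) was 0.20 with thinned wells and -0.26 to 0.058 without single plates, and in non-basal wells (0.14) -0.024 without the top 5% and -0.070 to 0.34 without single plates. For the difference between classes Ccna2 (-0.72) was 0.049 with thinned classes, and Aurkb (-0.64) was 0.28 with stricter and 0.26 with thinned classes and -1.96 to 0.22 without single plates. Depth limits the basal wells of Collagen I, where the genes had 0 to 33 counts per plate. No call of a difference between classes held in every alternative, whereas 8 calls over all wells, 7 in basal and 4 in non-basal wells did.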
